A study of Mus musculus with 20 samples.

Results

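The genes described here are the 8 core genes of the cellular oxygen sensor: the hypoxia-inducible factor (HIF) subunits Epas1, Hif1a and Arnt, the prolyl hydroxylases Egln1, Egln2 and Egln3, the ubiquitin ligase receptor Vhl and the asparaginyl hydroxylase Hif1an. They were picked by symbol from the 34937 annotated genes counted in single mouse embryos at E2.5, the 8-cell stage (8C). The choice was made with the comparison of maternal genotypes in view. The values of the members in that comparison, and the calls printed for them, are therefore given below as a description and not as a test. Counts were available for 9 control embryos (Ehmt2Cntr) and 10 embryos depleted of maternal G9a (Ehmt2Mat), G9a being the histone H3 lysine 9 methyltransferase encoded by Ehmt2. Control embryo 4 was not analysed here.

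The mothers of Ehmt2Cntr embryos were Ehmt2F/+ and those of Ehmt2Mat embryos Ehmt2F/-, and all of them carried Zp3-Cre, which is expressed in growing oocytes and recombines the floxed (F) allele there. The fathers were Ehmt2+/-. By their own (zygotic) genotype, 6 of the 9 controls were +/+ and 3 were +/-, whereas 5 of the 10 Ehmt2Mat embryos were +/- and 5 were -/-. All embryos were of mixed background and morphologically normal, and the records do not tie embryos to mothers or litters, so p-values measure only the spread between these embryos. Library totals ranged from 12985149 to 30053248 counts in Ehmt2Cntr and from 8231646 to 30602434 in Ehmt2Mat. In the scaling used here, 3 counts were worth 0.0954 to 0.271 CPM (counts scaled to the library size) in controls and 0.0911 to 0.363 CPM in Ehmt2Mat embryos. The number of genes with a count was between 12068 and 13230 in 8 controls, 16142 in control 10, and between 12754 and 16412 in Ehmt2Mat embryos. Transcripts of Ehmt2 itself averaged 141 ± 59.7 CPM (SD, n = 9) in controls and 102 ± 32.7 CPM (n = 10) in Ehmt2Mat embryos, a log2 difference of -0.47 (SE 0.24, edgeR adjusted p = 0.233), and these gene-level counts do not separate the deleted exons.

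HIF is a dimer of an oxygen-labile alpha subunit, HIF1A or EPAS1 (HIF2A), and the stable beta subunit ARNT. Where oxygen is at hand, the EGLN hydroxylases mark the alpha subunit on prolines and VHL directs it to degradation, while HIF1AN blocks its coactivator contact by hydroxylating an asparagine. HIF activity is therefore set mainly at the protein, and the RNA levels given here do not measure it. Egln1 and Egln3 are themselves transcribed by HIF when oxygen falls, which makes them part of a feedback loop, and Epas1 is otherwise best known from endothelium, lung and kidney.

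The core of the hypoxia response element is ACGTG or GCGTG. The 250 bases before the start of Egln1 and Egln3, the feedback members of the loop, are shown. Transcripts of both had lower mean levels in Ehmt2Mat embryos, as had those of Epas1, Arnt, Egln2 and Vhl. The windows are RefSeq sequence of GRCm38.p6, written along the minus strand on which both genes lie. The Egln1 window is chr8:124949255-124949504 and the Egln3 window chr12:54203875-54204124, and capitals mark the core letters on either strand.

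Egln1: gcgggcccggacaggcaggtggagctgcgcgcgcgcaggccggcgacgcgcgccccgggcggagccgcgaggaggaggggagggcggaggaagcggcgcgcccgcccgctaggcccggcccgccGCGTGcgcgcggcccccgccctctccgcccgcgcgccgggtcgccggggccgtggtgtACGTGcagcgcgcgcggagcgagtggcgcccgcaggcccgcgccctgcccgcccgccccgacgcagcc
Egln3: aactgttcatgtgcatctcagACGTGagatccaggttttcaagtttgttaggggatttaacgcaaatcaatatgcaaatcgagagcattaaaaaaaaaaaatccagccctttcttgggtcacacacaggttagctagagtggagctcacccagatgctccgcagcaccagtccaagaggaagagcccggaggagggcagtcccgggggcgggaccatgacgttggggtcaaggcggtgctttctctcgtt

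In the Egln1 window, GCGTG stood at positions -126 to -122 and ACGTG at -68 to -64 relative to the start. The Egln3 window held ACGTG at -229 to -225. RefSeq windows were matched for 7 of the 8 members (8 windows, since Egln2 had an alternative start), and 6 of these windows held the letters on at least 1 strand. The windows of Egln2 held 4 and 1 matches, that of Hif1a 3 and that of Arnt 1, while those of Vhl and Hif1an held 0. Of all 32851 mouse windows of this length, 12679 (38.6%) held them as well, so the letters are common and a match is a description of the sequence only.

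Among the alpha subunits, Epas1 (chr17:86753907-86833410, plus strand) was the more abundant in controls, its lowest level of 10.1 CPM per kilobase of exon being above the highest of Hif1a (3.70 CPM per kilobase). The level of Epas1 in the 9 Ehmt2Cntr embryos ran from 53.6 to 208 CPM with a median of 110 CPM. In the 10 Ehmt2Mat embryos it ran from 0.775 to 50.8 CPM with a median of 12.1 CPM. Every Ehmt2Mat embryo was below every control, although by a small margin at the edge, where Ehmt2Mat embryo 7 (50.8 CPM) came close to control 10 (53.6 CPM). The means were 116 ± 52.4 CPM (SD, n = 9) and 16.3 ± 15.6 CPM (n = 10), and the fitted log2 fold change of Ehmt2Mat over Ehmt2Cntr was -2.82 (SE 0.51), or 7.08-fold lower. By this fold change Epas1 stood 41st from the lowest of the 11754 genes that passed the filter on low counts. Groups that did not overlap in this direction were found for 0.179% of these genes, and the separation belongs to the values by which Epas1 was chosen. Since whole embryos were read, fewer blastomeres with the transcript and less RNA per blastomere cannot be told apart.

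Hif1a (chr12:73901375-73947530, plus strand), the more widely expressed alpha subunit in adult tissues, was scarce in these embryos. Controls held between 0 and 21.8 CPM with a median of 0.362 CPM, and 4 of the 9 controls had 3 counts or fewer. Ehmt2Mat embryos held between 0.881 and 16.1 CPM with a median of 3.54 CPM. All 10 Ehmt2Mat embryos were above the control median and 5 controls were below every Ehmt2Mat embryo, yet the highest value of all belonged to control 10. The log2 fold change was 0.63 (SE 0.94) with all 19 embryos and 1.91 without control 10, which is also the control with the most genes detected and the lowest Epas1 level. The means were 3.82 ± 7.03 and 5.96 ± 5.44 CPM. Of the 50-base windows of annotated Hif1a transcripts, 5.74% also occur in transcripts of another gene, and its exons share 330 bases with the antisense gene Gm15283, which had between 0 and 4 counts; none of the other 7 members shared such a window.

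Arnt (chr3:95434388-95497240, plus strand), the common dimer partner, was present in all embryos at similar mean levels. Controls held 14.9 to 62.5 CPM (median 34.3), and Ehmt2Mat embryos 18.0 to 42.8 CPM (median 31.6). The groups overlapped over most of their range, and the log2 fold change was -0.16 (SE 0.28).

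**Figure D1:**
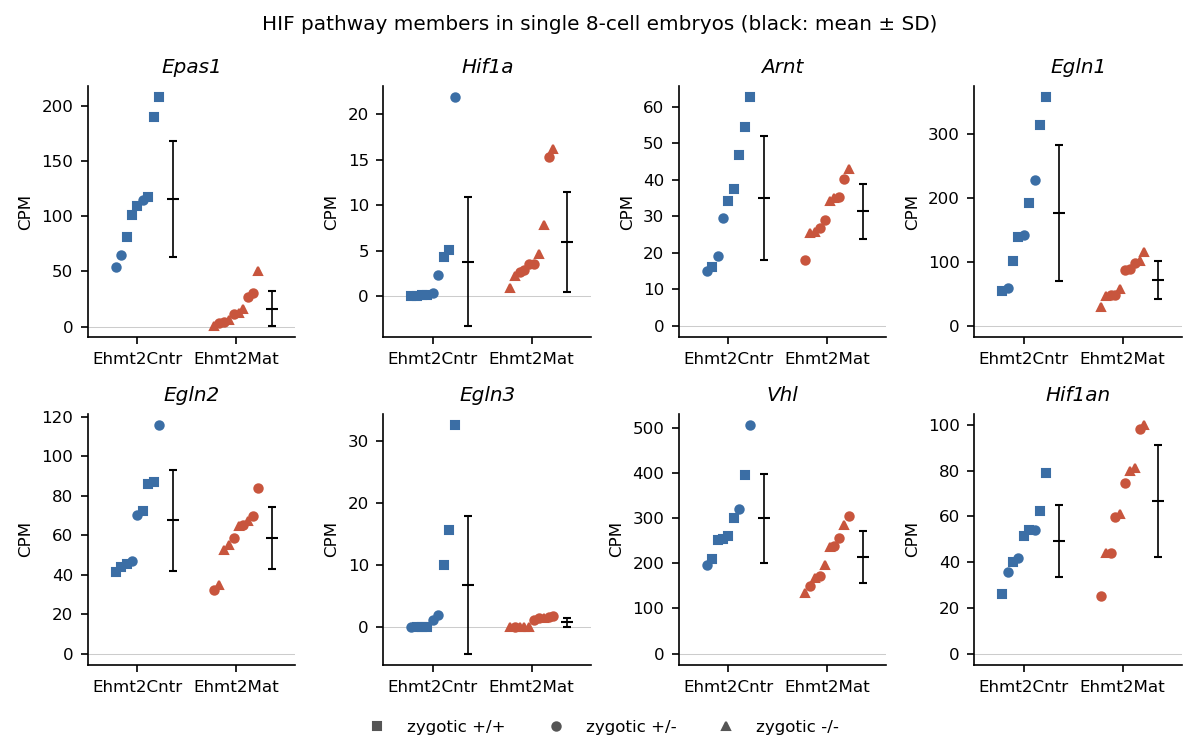
Levels of the 8 members in CPM, 1 point per embryo, in 9 Ehmt2Cntr and 10 Ehmt2Mat embryos. The marker shape gives the zygotic genotype and the black bar the mean and SD of the group. For Epas1 all Ehmt2Mat points (0.775 to 50.8 CPM) lie under the lowest control (53.6 CPM), whereas the other 7 members overlap between groups.

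Of the prolyl hydroxylases, Egln1 (chr8:124908596-124949254, minus strand), the main oxygen sensor of most cells, ran from 54.8 to 358 CPM in controls with a median of 142 CPM. In Ehmt2Mat embryos it ran from 29.9 to 115 CPM with a median of 72.6 CPM. All 10 Ehmt2Mat embryos were below the control median and 6 controls were above every Ehmt2Mat embryo, while controls 2, 9 and 10 (54.8, 101 and 59.4 CPM) lay inside the Ehmt2Mat range. The means were 177 ± 107 and 72.0 ± 29.3 CPM, a log2 fold change of -1.30 (SE 0.33).

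Egln3 (chr12:54178981-54203860, minus strand), the hydroxylase that responds most to HIF in many cell types, had no count in 4 of the 9 controls and in 5 of the 10 Ehmt2Mat embryos. Controls 7, 6 and 8 held 32.6, 15.6 and 9.93 CPM, whereas controls 10 and 3 held 1.84 and 1.08 CPM and the remaining 4 none. Ehmt2Mat embryos held at most 1.65 CPM. The mean of 6.79 ± 11.2 CPM in controls therefore rested on 3 embryos, all zygotic +/+, and the log2 fold change of -3.25 had an SE of 1.40. Egln2 (chr7:27158658-27166802, minus strand), the isoform that is not induced by hypoxia, was at 41.1 to 116 CPM in controls (median 70.3) and at 32.4 to 83.8 CPM in Ehmt2Mat embryos (median 61.6), with a log2 fold change of -0.21 (SE 0.23). It shares 11 exon bases with Cyp2t4 on the opposite strand, which the counting did not tell apart.

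The remaining regulators were moderately to highly expressed in every embryo. Vhl (chr6:113623959-113631633, plus strand), which recognises the hydroxylated alpha subunit, was at 197 to 506 CPM in controls (median 259) and at 134 to 304 CPM in Ehmt2Mat embryos (median 216), with a log2 fold change of -0.49 (SE 0.20). Hif1an (chr19:44562850-44576274, plus strand) was at 26.1 to 79.2 CPM in controls (median 51.5) and at 25.3 to 99.9 CPM in Ehmt2Mat embryos (median 67.8), with a log2 fold change of 0.43 (SE 0.25). The groups of both genes overlapped.

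All 8 members passed the filter on low counts. In the edgeR quasi-likelihood fit over 11754 genes, 2 of the 8 members, Epas1 and Egln1, had an adjusted p under 0.05, both lower in Ehmt2Mat. Over all genes 9.35% were past this threshold, 4.98% lower and 4.37% higher. Since the members were chosen on this contrast, neither the calls nor their share are a test of the members, and nothing is read from them.

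The embryos of the maternal groups differ in zygotic genotype, and only +/- occurs in both. Among +/- embryos, Epas1 was at 53.6 to 115 CPM in 3 controls and at 3.63 to 30.7 CPM in 5 Ehmt2Mat embryos, without overlap, with means of 78.0 ± 32.8 and 15.4 ± 12.8 CPM and a log2 fold change of -2.36 (SE 0.68). These 8 embryos are part of the values by which Epas1 was chosen. The share of all genes that do not overlap among them was not computed, and with 3 against 5 embryos nothing is read from the separation. For Egln1 the means were 143 ± 84.3 and 73.8 ± 24.4 CPM, and the ranges overlapped (59.4 to 228 and 47.5 to 98.4 CPM), with a log2 fold change of -0.96 (SE 0.43). Egln3 averaged 0.976 ± 0.927 CPM in the 3 controls and 1.12 ± 0.664 CPM in the 5 Ehmt2Mat embryos, so its lower mean in Ehmt2Mat embryos was not seen among +/- embryos, which do not include the 3 high controls. Among these 8 embryos 1 gene in the whole table passed the threshold, and none of the members did.

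Zygotic genotype was compared within each maternal group, a contrast that played no part in choosing the genes. Within Ehmt2Mat, Epas1 averaged 17.3 ± 19.6 CPM in 5 -/- embryos and 15.4 ± 12.8 CPM in 5 +/- embryos. The edgeR log2 difference of 0.17 had a 95% interval from -1.51 to 1.85, so that a difference of up to several fold in either direction was not detectable here. The difference of mean log2(CPM + 1) was -0.14, of the other sign (exact permutation test, 252 splits, two-sided p = 0.881). Egln1 averaged 70.2 ± 36.5 and 73.8 ± 24.4 CPM. Its edgeR log2 difference was -0.07 (interval -0.82 to 0.67), and that of log2(CPM + 1) was -0.17 (exact p = 0.706). Egln3 had counts in 1 of 5 -/- and in 4 of 5 +/- embryos, which gave the smallest p among the members in this contrast (exact p = 0.127).

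Within the controls, Epas1 averaged 78.0 ± 32.8 CPM in the 3 +/- embryos and 135 ± 51.6 CPM in the 6 +/+ embryos. The ranges of 53.6 to 115 and 81.7 to 208 CPM overlapped. The edgeR log2 difference was -0.77 (SE 0.38), and that of log2(CPM + 1) was -0.78 (exact permutation test, 84 splits, two-sided p = 0.0952). Arnt averaged 21.2 ± 7.50 CPM in +/- and 41.9 ± 16.4 CPM in +/+ controls. Its edgeR log2 difference was -0.98 (SE 0.50), and that of log2(CPM + 1) was -0.89 (exact p = 0.0952). Neither difference passed the threshold, and the other 6 members had exact p-values from 0.298 upward. In edgeR fits across all genes, 0 of the 8 members were called in either zygotic contrast or in the test of whether a lost zygotic copy had a different effect in Ehmt2Mat than in Ehmt2Cntr, and 0 members had an unadjusted p under 0.05 in any of them. Over all genes 0.0% were called in each, with 270, 572 and 1236 genes at an unadjusted p under 0.05. DESeq2 called 0 members in each, beside 0.0246%, 0.0237% and 0.69% of all genes, and gave Arnt an unadjusted p under 0.05 in the control contrast and in the test of the difference. For Arnt the difference between the effects was 1.14 on the log2 scale (SE 0.57, edgeR adjusted p = 0.642), and for Epas1 it was 0.98 (SE 1.02, adjusted p = 0.937).

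To compare the members with each other, levels were divided by exon length. In controls the order of mean CPM per kilobase was Vhl (99.9), Egln1 (50.3), Egln2 (24.1), Epas1 (21.8), Hif1an (7.48), Arnt (4.37), Egln3 (2.55) and Hif1a (0.648). Neighbours were compared within embryos by exact sign-flip permutation tests on log2(CPM per kilobase + 1), and 5 of the 7 neighbouring pairs differed after adjustment over the pairs of the group. Egln2 and Epas1 did not differ beyond their spread (exact p = 0.535), nor did Egln3 and Hif1a (exact p = 0.359). Epas1 exceeded Hif1an in 9 of 9 controls (exact p = 0.00391).

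In Ehmt2Mat embryos the order was Vhl (71.3), Egln2 (20.9), Egln1 (20.5), Hif1an (10.1), Arnt (3.91), Epas1 (3.08), Hif1a (1.01) and Egln3 (0.263). By mean level Epas1 thus stood below Hif1an and Arnt, although Arnt and Epas1 did not differ beyond their spread (exact p = 0.148). Egln2 and Egln1 did not differ beyond their spread either (exact p = 0.734). The change of order from controls restates the comparison of maternal groups that was in view when the members were chosen, and is a description. Vhl exceeded Egln2, and Hif1an exceeded Arnt, in 10 of 10 embryos (exact p = 0.00195 for both), and the other 5 neighbouring pairs did not pass the threshold after adjustment. Epas1 exceeded Hif1a per kilobase in 9 of 10 Ehmt2Mat embryos (exact p = 0.0605), the exception being embryo 5, where Epas1 was at 0.775 CPM and Hif1a at 16.1 CPM. Counts from cDNA with a 3′ bias need not scale with length, and without division by length 1 pair in controls and 4 pairs in Ehmt2Mat embryos passed.

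**Figure D2:**
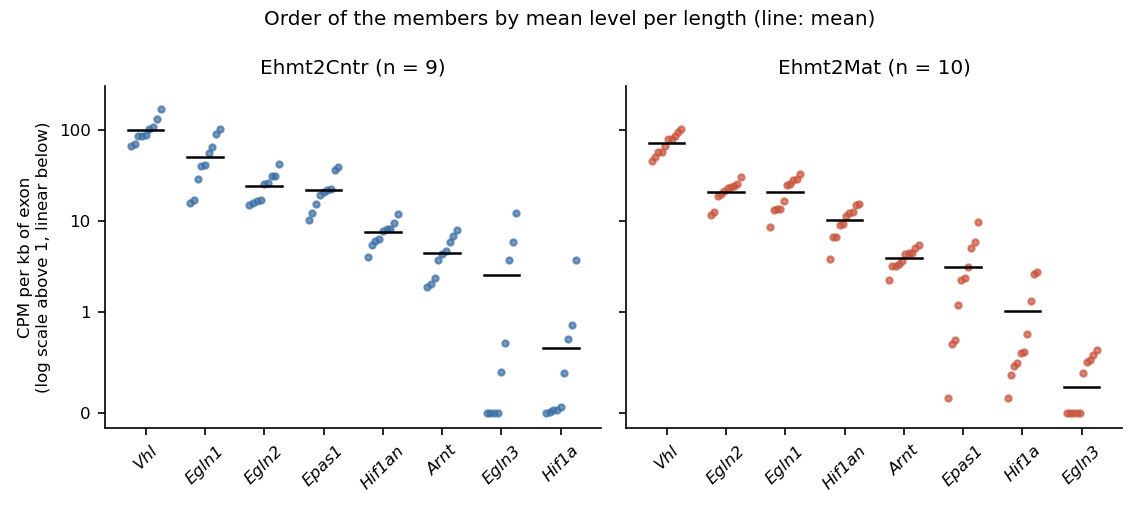
Levels per kilobase of exon of the 8 members, ordered by the group mean, in 9 Ehmt2Cntr (left) and 10 Ehmt2Mat embryos (right). Points are embryos, black lines are means, and the vertical axis is logarithmic above 1 and linear below. Epas1 stands next to Egln2 in controls (means 21.8 and 24.1) and below Arnt in Ehmt2Mat embryos (3.08 and 3.91), while Vhl is first in both.

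The members differed in how much they varied between embryos of 1 group. The SD of Epas1 on the log2(CPM + 1) scale was 0.64 in controls and 1.49 in Ehmt2Mat embryos. Of the 500 genes nearest to it in mean level, 71.6% had a smaller SD in controls and 95.8% in Ehmt2Mat embryos, where the median SD of such genes was 0.83. Egln1 (SD 0.96) and Egln3 (SD 2.00) were the most variable members for their level in controls, where 96.8% and 99.4% of like genes had a smaller SD. Arnt in Ehmt2Mat embryos was at the other end (SD 0.36), with 3.6% of like genes having a smaller SD.

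Egln1 and Egln3, the hydroxylases that HIF induces, were set beside Epas1 in each control. Controls 7 and 6 had the highest Epas1 levels (208 and 190 CPM), the highest Egln1 levels (315 and 358 CPM) and the highest Egln3 levels (32.6 and 15.6 CPM), and held 0.0769 and 0 CPM of Hif1a. They also had the highest Ehmt2 levels of the controls (215 and 253 CPM), so being high in these embryos was not particular to the hydroxylases. Control 5, the next in Epas1 (118 CPM), had no Egln3 count and 140 CPM of Egln1, just under the control median of 142 CPM. Control 10 was at the other end, with the lowest Epas1 (53.6 CPM), the second lowest Egln1 (59.4 CPM) and the highest Hif1a (21.8 CPM). Over the 9 controls, Pearson's r of log2 CPM with Epas1 was 0.78 for Egln1 (0.69 without control 10), 0.61 for Egln3 (0.43 without control 7) and -0.74 for Hif1a (-0.60 without control 10), given as descriptions. Over the 10 Ehmt2Mat embryos the values were 0.34, 0.27 and -0.16, and they depended on single embryos. Leaving out 1 embryo gave 0.17 (without embryo 7) to 0.56 (without embryo 1) for Egln1, 0.05 (without embryo 5) to 0.51 (without embryo 7) for Egln3, and -0.41 (without embryo 10) to 0.36 (without embryo 5) for Hif1a, a change of sign.

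Over all 19 embryos, with group means removed, the correlation of Epas1 with Egln1 was r = 0.39 (permutation test within groups, p = 0.0513) and Spearman's rho = 0.46 (permutation p = 0.0343). Without the embryos farthest from the median, Ehmt2Mat 5 and 7, r was 0.32. Of the 7 relations computed, unadjusted, none had a permutation p under 0.05 by Pearson's r, with r = 0.30 for Egln3 (permutation p = 0.121) and r = -0.29 for Hif1a (permutation p = 0.104). All values of an embryo share its library, and control 10 also differed in genes detected, as given above; the part of these properties in the relations was not tested.

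**Figure D3:**
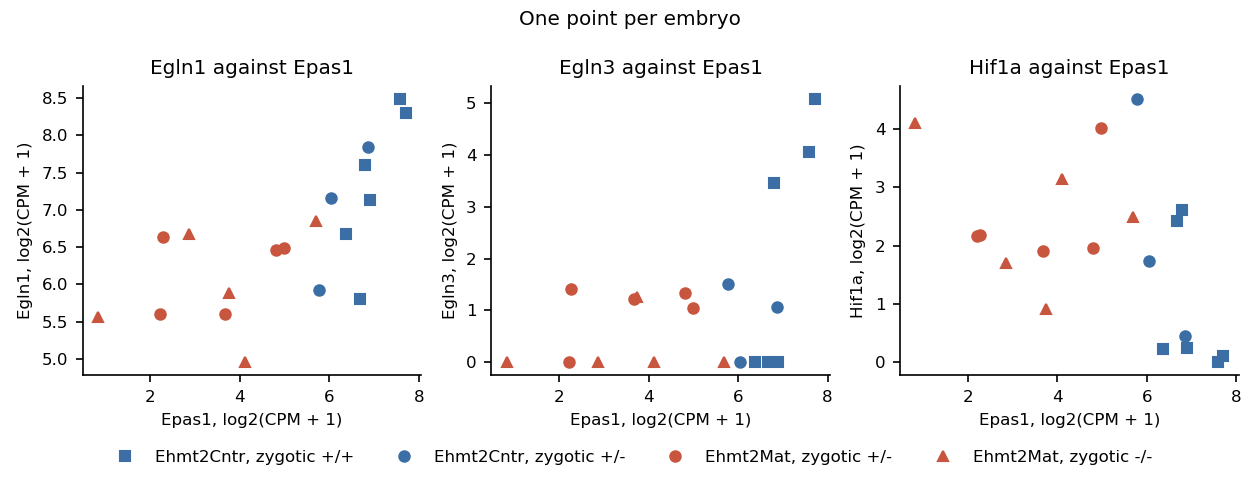
Egln1, Egln3 and Hif1a against Epas1 in each of the 19 embryos, on log2(CPM + 1) axes, coloured by maternal group and shaped by zygotic genotype. Controls 6 and 7 lie at the upper right for Egln1 and Egln3 and at the bottom right for Hif1a, where they hold 0 and 0.0769 CPM.

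The genes whose deviations from the group means followed Epas1 most closely, among 7492 genes with a mean of at least 10 CPM, were Abcb10 (r = 0.78), Arhgef3 (r = 0.73), As3mt (r = 0.69), Cpsf7 (r = 0.69) and Arfip2 (r = 0.68) over 19 embryos. The median r over these genes was 0.0071 and the 99th percentile 0.52. Within controls, r was 0.83, 0.87 and 0.77 for Arhgef3, As3mt and Arfip2, and within Ehmt2Mat embryos it was 0.74, 0.83 and 0.72. For Abcb10 and Cpsf7, r was 0.90 and 0.81 within Ehmt2Mat embryos, and 0.16 and -0.12 within controls. These genes were picked for the highest r of 7492, and r within each group is part of the value they were picked by. Whether unrelated genes would reach such values among so many was not tested. The likeness is therefore a description, and nothing is read from it. As3mt, which encodes the arsenite methyltransferase, averaged 19.7 ± 25.7 CPM in controls and 1.56 ± 1.52 CPM in Ehmt2Mat embryos (log2 fold change -3.65, SE 1.03, edgeR adjusted p = 0.0259). Abcb10, a mitochondrial transporter of the erythroid lineage, averaged 46.6 ± 14.8 and 30.7 ± 22.3 CPM and was not past the threshold (adjusted p = 0.331).

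Beyond the members, 5 lists of the HIF pathway with 76 genes were examined, of which 51 passed the filter. Of these 51 genes, 2 were higher and 1 was lower in Ehmt2Mat embryos, beside 4.37% and 4.98% of all genes. The median log2 fold change of the 51 genes was 0.07 and that of all 11754 genes was -0.04. With 3 calls in all, no difference from the shares over all genes is read from the lists. The lists were chosen with earlier results of these data known, and the called genes are named below because they passed. Their values and adjusted p are therefore a description. No list gene was called with zygotic + alleles as a covariate or with only +/- embryos, and none was called lower without the filter.

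The other bHLH-PAS factors, relatives of the HIF subunits, were mostly low. Of 13 genes 3 passed the filter and none the threshold. Sim1 and Npas4 were at 0 in every embryo, while Ahr, the dioxin receptor, reached 24.1 CPM in an Ehmt2Mat embryo although it was below the filter. The highest in mean were the circadian factors Npas2 (medians of 3.71 CPM in controls and 15.1 CPM in Ehmt2Mat embryos, log2 fold change 1.59, SE 0.73, adjusted p = 0.187) and Clock (15.4 ± 7.79 and 18.0 ± 11.7 CPM). None of the 4 subunits that join VHL in its ubiquitin ligase passed the threshold. The highest of them were Eloc (643 ± 344 and 798 ± 244 CPM), the elongin C adaptor, and the cullin scaffold Cul2 (131 ± 50.0 and 125 ± 47.5 CPM).

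Of the 12 cofactors and stability factors of HIF, 1 was higher. Hsp90ab1, an HSP90 chaperone that stabilises HIF1A, was at 1760 to 6069 CPM in controls (median 2988) and at 3960 to 12542 CPM in Ehmt2Mat embryos (median 5616). All 10 Ehmt2Mat embryos were above the control median, and the log2 fold change was 0.95 (SE 0.23, edgeR adjusted p = 0.00996).

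Of the 19 target genes of glucose uptake and glycolysis, 17 passed the filter and 1 was higher. Aldoa, the glycolytic aldolase, was at 9.49 to 94.3 CPM in controls (median 51.5) and at 76.0 to 262 CPM in Ehmt2Mat embryos (median 131), where 8 embryos were above every control. Its log2 fold change was 1.35 (SE 0.32, edgeR adjusted p = 0.00928). Levels of this list are uncertain where genes have near-identical copies. Gapdh, which every cell uses, was counted at a mean of 0.234 CPM in controls and 0.0529 CPM in Ehmt2Mat embryos, and 25.1% of the 50-base windows of its transcripts also occur in transcripts of other genes, against 6.43% for Aldoa. Whether reads that map to several places reached the counts is not known.

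Of the 28 further targets, for oxygen delivery, mitophagy, matrix, iron and feedback, 15 passed the filter and 1 was lower. Higd1a, a small mitochondrial protein of the respiratory chain, was at 1.67 to 15.7 CPM in controls (median 7.95) and at 0.543 to 5.20 CPM in Ehmt2Mat embryos (median 1.57). In 6 Ehmt2Mat embryos it was below every control, with a log2 fold change of -2.12 (SE 0.58, edgeR adjusted p = 0.022), and 24.4% of its windows occur in other transcripts.

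**Figure D4:**
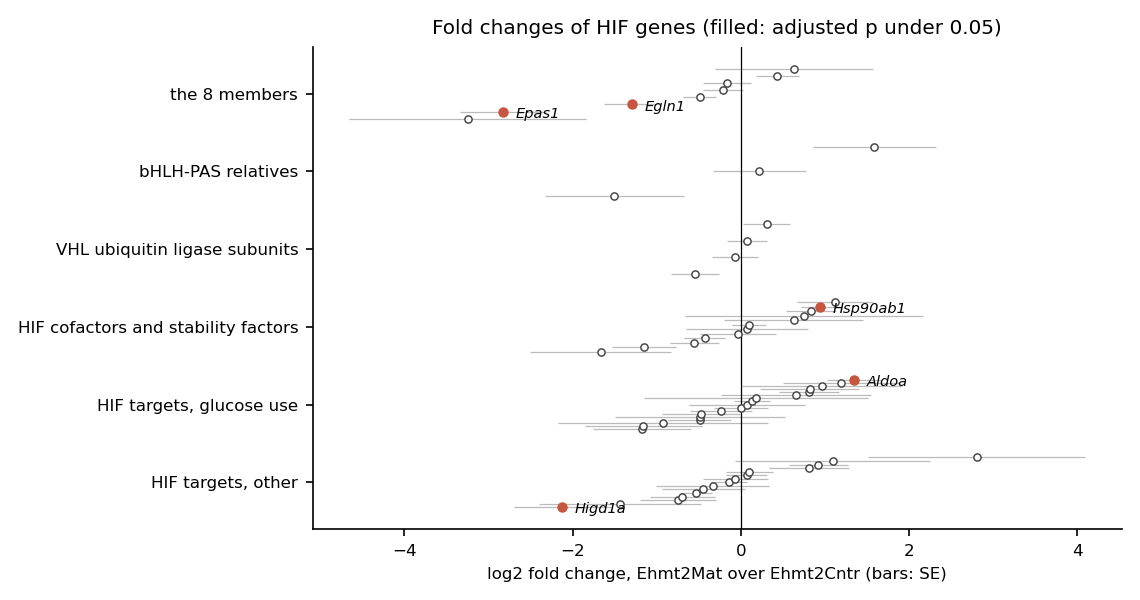
Log2 fold changes of Ehmt2Mat over Ehmt2Cntr with their SE for the 8 members and the tested genes of 5 HIF pathway lists. Filled points are past an adjusted p of 0.05: Epas1 (-2.82) and Egln1 (-1.30) among the members, and Hsp90ab1 (0.95), Aldoa (1.35) and Higd1a (-2.12) among 51 list genes, while the other points spread on both sides of 0.

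Markers of other cells were read beside these values. All 6 genes of the list for the cleavage embryo had counts, with summed levels of 1842 to 3339 CPM in controls and 2530 to 3544 CPM in Ehmt2Mat embryos. This list includes Zp3 and Gdf9, which are genes of the oocyte. Most of the sum was Dppa3 (medians of 1764 CPM in controls and 2411 CPM in Ehmt2Mat embryos), and single genes went both ways. The medians in controls and Ehmt2Mat embryos were 218 and 77.2 CPM for Klf5, and 178 and 317 CPM for Tfap2c. Epas1 is an endothelial gene in adult tissues, and of the 6 endothelial markers Pecam1 made up nearly the whole sum (46.4 to 208 and 88.7 to 334 CPM), while the other 5 were low. Cdh5, the cadherin of endothelial junctions, was at 0 in 17 of 19 embryos and Kdr, a VEGF receptor, in 13. Erg, Tek and Tie1 were at 0 in 8, 7 and 5 embryos and reached 7.71, 7.30 and 6.66 CPM. Of the 7 cumulus and granulosa markers 3 had any count, with sums of at most 5.02 and 1.52 CPM, and blood markers summed to at most 8.02 and 8.16 CPM. Sperm markers summed to at most 0.769 and 1.23 CPM, with counts for 2 of 4. The oviduct sum, nearly all Ovgp1, had a median of 2.60 CPM in controls (0.0904 to 386) and 105 CPM in Ehmt2Mat embryos (10.0 to 2840). Medians were also higher in Ehmt2Mat embryos for the blood (0.0769 and 2.75 CPM), endothelial (134 and 159 CPM) and cleavage embryo sums (2398 and 3018 CPM). All these ranges overlapped, and the cumulus and sperm medians were 0 in both groups. The median number of genes with a count was 12848 in controls and 14487 in Ehmt2Mat embryos, and its part in this was not tested. Ovgp1 was not past the threshold (edgeR adjusted p = 0.0926), and its part in the values above was not tested.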

How the data were processed

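RNA of 19 single 8C embryos was analysed, 9 Ehmt2Cntr and 10 Ehmt2Mat, grouped by the maternal genotype in the labels. cDNA had been amplified with a 3′ bias and sequenced as single-end 50 bp reads. The authors deposited raw counts per gene, without normalization. Per the file headers, reads were counted with featureCounts 1.5.0 on exons of Ensembl release 82 (GRCm38), requiring 10 overlapping bases, counting a read for each gene it touched, keeping multi-mapping reads and ignoring strand. The labels name TopHat2, whereas the study's methods pair featureCounts with a bowtie alignment restricted to uniquely mapping reads, and the header's name for the input alignment carries the mark of such a restriction. The aligner is therefore not certain, and multi-mapping reads may have been removed before counting. Total counts were 8231646 to 30602434 per embryo, which leaves genes at a few counts imprecise.

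From these counts, edgeR 4.0.16 (R 4.3.3) was run with filterByExpr, TMM and the quasi-likelihood test over all genes (11754 kept), and p-values were adjusted by Benjamini-Hochberg (threshold 0.05). CPM use TMM-scaled library sizes, and correlations use log2 CPM with a prior count of 2. Zygotic contrasts were fitted within each maternal group, and members were also tested by exact permutation on log2(CPM + 1). Permutation p-values of correlations used 100000 draws within groups. Intervals (95%) of fold changes are normal intervals from the SE. Scripts were tested on simulated data. Alternatives were RLE, DESeq2 1.42.0, other filters, the embryo number as a block, zygotic covariates and each embryo left out. Embryo numbers did not pair the embryos.

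The members, pathway lists and markers were chosen with earlier results of these data known. Named were all members, Ehmt2, the list genes past the threshold or else the 2 highest of a list, and the 5 genes most like Epas1; Gapdh, Ahr, Sim1, Npas4, Gm15283, Cyp2t4 and the marker genes were named after their values were seen. Symbols were matched for 34599 of 34937 genes. Shared 50-base windows were counted in GENCODE M21 transcripts.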

Additional observations from a re-analysis of the deposited data

Results flagged for a closer look

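Dixon's criterion was applied to 40 groups of CPM values. Each group was a gene in the embryos of a maternal group or of a maternal and zygotic genotype. An embryo lay far from the others in 4 groups, all of Hif1a or Egln3, which had few or no counts in several embryos. The criterion's rate of about 1 in 20 by chance holds for independent, normally distributed values. These groups share embryos, and CPM of scarce genes are skewed, so the number of groups is not compared with that rate. Hif1a reached 21.8 CPM in control 10, against 5.12 CPM in the next control. In Ehmt2Mat embryos of the zygotic genotype +/-, Hif1a reached 15.3 CPM in embryo 10, against 3.57 CPM in the next. Egln3 reached 32.6 CPM in control 7, against 15.6 CPM in the next control. Among -/- Ehmt2Mat embryos, Egln3 had 1.40 CPM in embryo 4 and no count in the other 4.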

How the results depend on the processing

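Epas1 and Egln1 were past the threshold whichever of the 19 embryos was left out (log2 fold change -3.21 to -2.67 and -1.42 to -1.10), as well as with RLE, DESeq2, no filter, at least 10 counts in every embryo (where Hif1a and Egln3 were not fitted) and the replicate block. These fits reuse the values on which the members were chosen, so the repeated calls are a description and not a test of the members. With the number of zygotic + alleles as a covariate, and with only +/- embryos, 0 members were called; these fits called 3 and 1 genes in the whole table, against 1099 in the fit of the report, and the second had 8 embryos. The fold changes there were -2.50 and -2.36 for Epas1 and -1.01 and -0.96 for Egln1. The whole table had 828 higher and 947 lower calls with DESeq2 and 346 and 347 with the block, against 514 and 585. No member was called higher, or in a zygotic contrast, under any setting run. Of the pathway lists, 2 genes were called higher, and 4 with DESeq2, 1 with the block and 0 in each zygotic setting, with 2 to 3 when an embryo was left out; 1 was called lower, and 2 with DESeq2 and 0 with no filter, the block and both zygotic settings, with 1 to 2 when an embryo was left out (2 without control 1, 7 or 10 or Ehmt2Mat 10). Without division by length, 1 neighbouring pair of levels passed in controls in place of 5, and 4 in Ehmt2Mat in place of 2. The fold change of Egln3 was -0.06 with the covariate and 0.17 in +/- embryos, that of Arnt 0.49 in +/- embryos and that of Hif1a 2.75 with the block and -0.59 in +/- embryos; the cause was not tested. The 9 pairs of embryos that share a number had correlations from -0.16 to 0.09, none over 0.1, and 0 controls correlated best with their own number. Hif1a and Egln3 had 3 counts or fewer in 4 controls each, and the part of depth in this was not tested.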
